A study of Mus musculus with 5 samples.

Results

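The cytosolic ribosomal protein genes were taken as the protein-coding genes whose mouse symbol begins with Rpl or Rps followed by a digit or p, or is Rpsa, leaving out the Rps6k kinases and symbols of pseudogenes. This gave 85 of the 17087 protein-coding genes in the counts, of which 51 encode proteins of the large subunit or their paralogs and 33 encode proteins of the small subunit or their paralogs. The remaining gene, *Rps19bp1*, matches the symbols but encodes a protein that binds RPS19 and is not a ribosomal protein, so it was kept as a member and described apart. The levels of these genes were compared between bone marrow stromal cells of 2 developmental origins.

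The cells were Cxcl12-GFP(high) tdTomato+ stromal cells isolated by FACS from femurs at postnatal day 21, after removal of the distal growth plates. Dlx5CE-E12.5 cells (3 libraries) came from Cxcl12(GFP/+); Dlx5(CreER/+); R26R(tdTomato/+) mice and Fgfr3CE-E12.5 cells (2 libraries) from Cxcl12(GFP/+); Fgfr3-iCreER; R26R(tdTomato/+) mice, so that every mouse carried a GFP gene at 1 *Cxcl12* allele and the tdTomato reporter, and every mouse received tamoxifen at E12.5. The creER drivers mark perichondrial cells and chondrocytes of the fetal cartilage, respectively, and tdTomato then stays in their descendants. Cells of several mice were pooled for a library, and complementary DNA was amplified from low amounts of RNA with a SMART-Seq kit.

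A ribosome consists of a large subunit, which joins amino acids, and a small subunit, which reads the mRNA, each built of ribosomal RNA and many different proteins. Ribosomal proteins are needed in near equal amounts, their mRNAs are abundant in growing cells, and most of these mRNAs start with a run of pyrimidines (the terminal oligopyrimidine, or TOP, sequence) through which the mTOR pathway controls their translation. The genes are short and highly expressed, and the mouse genome holds many processed pseudogenes, which are copies of their mRNAs placed back into the genome.

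Total counts ranged from 22035650 to 32563758 in Dlx5CE-E12.5 libraries and were 56355203 and 58166285 in Fgfr3CE-E12.5 libraries, which the labels number as replicates 2 and 3. By the study's methods, the Dlx5CE-E12.5 libraries were sequenced as paired-end reads of 150 bases and the Fgfr3CE-E12.5 libraries as single-end reads of 50 bases, while the series' design text names a HiSeq instrument for all libraries. Under the methods' description, read length and sequencer coincided with the origin and cannot be told apart from it. Markers of stromal cells that express *Cxcl12* were abundant in every library, with a summed level of 10 genes between 33218 and 35258 CPM (CPM are counts relative to the library's total, scaled by TMM) in Dlx5CE-E12.5 libraries and of 13433 and 8781 CPM in Fgfr3CE-E12.5 libraries, where 7 were called lower and 1 higher. Leukocyte markers were higher in Fgfr3CE-E12.5 cells for 10 of 10 genes, with summed levels of 375 to 461 CPM against 1205 and 2571 CPM and none of them at 0 throughout Dlx5CE-E12.5 libraries. Neutrophil markers were higher for 10 of 10 genes (2526 to 3152 CPM against 7160 and 17633 CPM), and 7 of 10 cell cycle genes, 5 of 6 tested macrophage markers and 4 of 7 osteoblast markers were higher as well. The summed level of 6 chondrocyte markers, of which 2 were at 0 in every Dlx5CE-E12.5 library, was 120 to 131 CPM against 2918 and 410 CPM. Erythroid markers, with 2 of 8 called lower (*Hba-a1* and *Hbb-bt*) and none higher, summed to 17799 to 36294 CPM against 13872 and 20634 CPM. The part of these other cells in the results below was not tested. Fgfr3CE-E12.5 replicate 3 held 2.13 times the leukocyte marker level and 2.46 times the neutrophil marker level of replicate 2. It also held 0.14 times the chondrocyte and 0.65 times the stromal marker level. Its ribosomal protein genes stood at a median of 1.07 times the level in replicate 2. Several kinds of markers differed at once between these 2 libraries, so the values cannot show the part of any 1 kind of cell.

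Ribosomal protein genes as a group were lower in Fgfr3CE-E12.5 cells. They took 1.22%, 1.10% and 1.18% of all counts in Dlx5CE-E12.5 replicates 1 to 3 (1.17% ± 0.0621, SD, n = 3) and 0.448% and 0.484% in Fgfr3CE-E12.5 replicates 2 and 3 (0.466% ± 0.0256, SD, n = 2). The libraries of the origins did not overlap, and the gap was over 10 times the SD of either origin. Genes of the large subunit fell from 0.758% ± 0.0439 to 0.285% ± 0.0182 of counts and genes of the small subunit from 0.409% ± 0.0199 to 0.179% ± 0.00722, which are descriptions with no test. In bulk libraries, fewer cells of a kind and less RNA for each cell cannot be told apart.

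In the test of single genes, 83 of the 85 genes had enough counts (10 CPM or more in 2 or more libraries), and *Rpl3l* and *Rps27rt* did not. Of the 83, 65 (78.3%) were called lower in Fgfr3CE-E12.5 cells at an edgeR adjusted p under 0.05 and a log2 fold change beyond 1, against 13.1% of all 10088 genes tested. None was called higher, against 16.4% of all genes tested. Without the fold threshold, 77 were lower by edgeR's adjusted p, against 23.4% of all genes tested, while 6 missed the threshold. None was higher, against 2517 of all 10088 genes tested. In 79 genes every Dlx5CE-E12.5 library lay above every Fgfr3CE-E12.5 library, an order seen in 34.1% of all genes tested. The median log2 fold change (Fgfr3CE-E12.5 over Dlx5CE-E12.5) was -1.51, with quartiles of -2.44 and -1.06, while the median over all genes tested was 0.01.

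**Figure D1:**
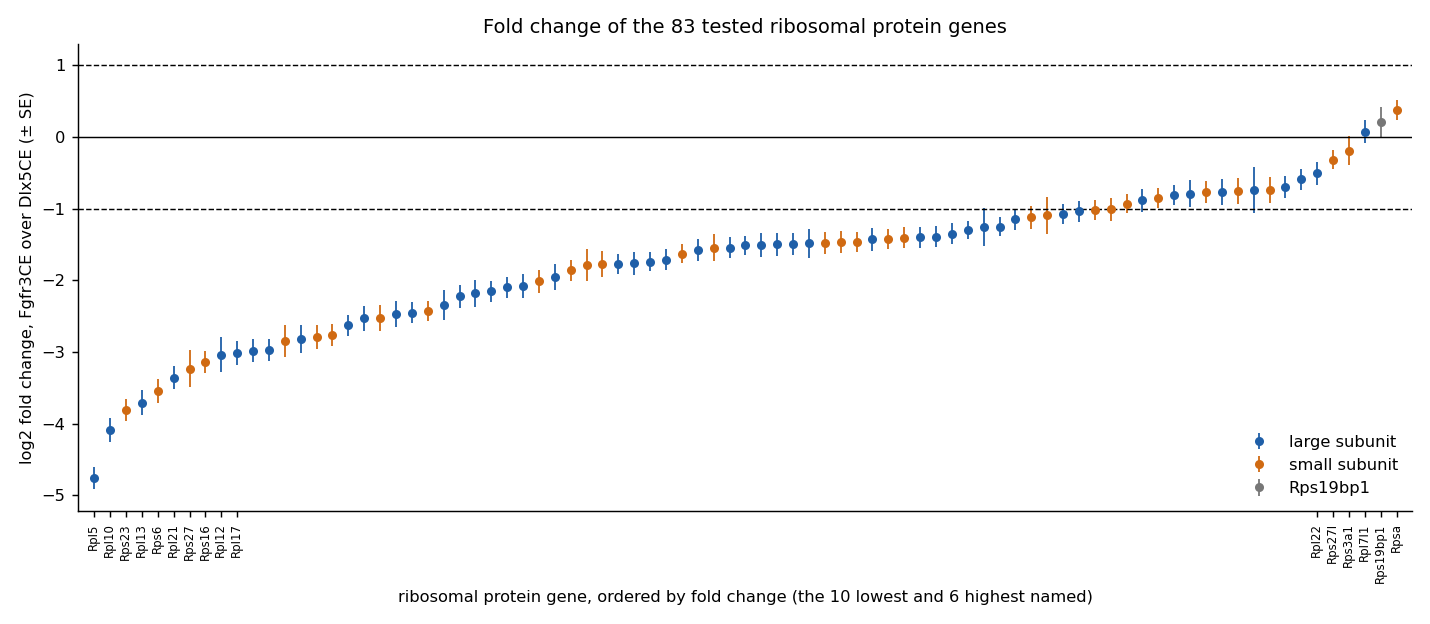
Log2 fold change (vertical axis, Fgfr3CE-E12.5 over Dlx5CE-E12.5, bars are ± SE) of the 83 tested genes in order of the fold change, coloured by subunit; dashed lines mark the fold threshold of 1. The values run from -4.76 for Rpl5 to 0.38 for Rpsa, 80 of 83 lie below 0, and both subunits are spread along the whole range.

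Genes of both subunits were lower. Of the 50 tested large subunit genes 41 were called lower, with a median log2 fold change of -1.56, and of the 32 tested small subunit genes 24 were called lower, with a median of -1.47. Within each origin the genes were tight between libraries, with a median SD of log2 CPM of 0.11 in Dlx5CE-E12.5 and 0.10 in Fgfr3CE-E12.5 libraries, below the 0.16 and 0.19 of all genes tested. The difference between the origins varied far more from gene to gene, from a log2 fold change of -4.76 to one of 0.38.

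**Figure D2:**
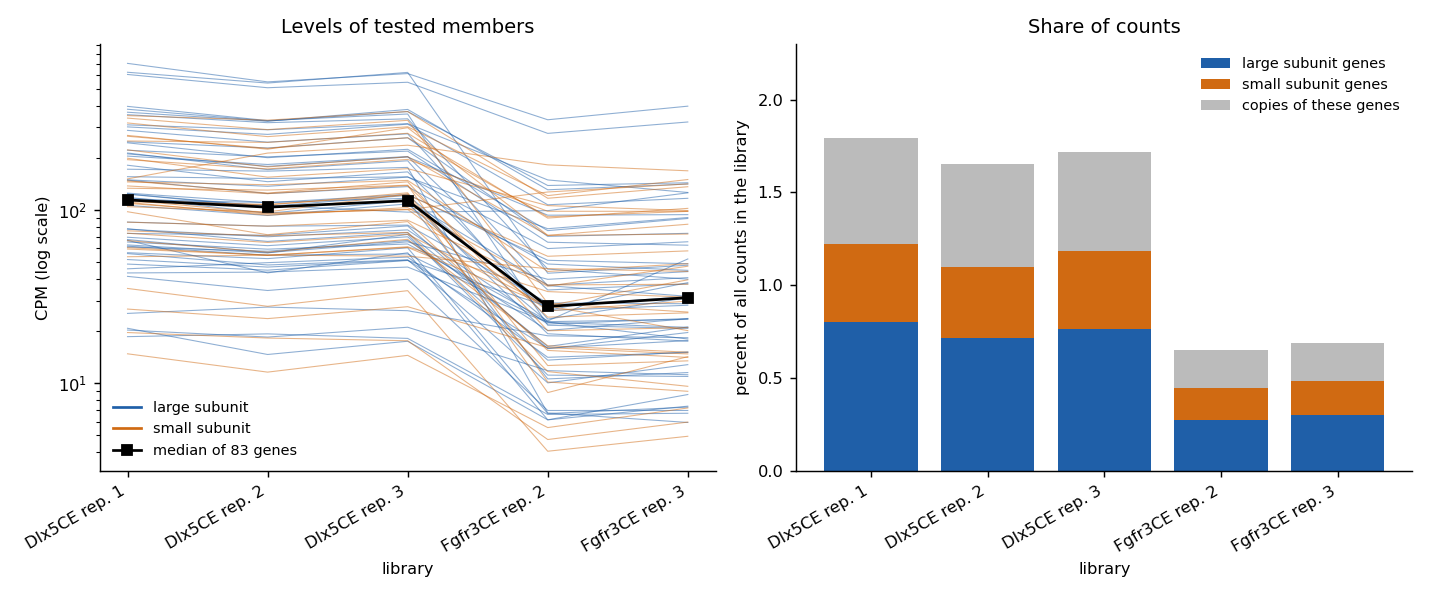
Left, CPM (log scale) of the 82 tested subunit genes in each of the 5 libraries, 1 line for each gene and black squares for the median of all 83 tested genes; right, the percent of all counts in each library on large subunit genes, small subunit genes and their copies elsewhere in the genome. The median lies at 104 to 114 CPM in Dlx5CE-E12.5 and at 27.7 and 31.2 CPM in Fgfr3CE-E12.5 libraries, and all 3 parts of the bars are lower in Fgfr3CE-E12.5 libraries.

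In the large subunit, *Rpl5* had the lowest fold change of the gene alone. Its product binds the 5S ribosomal RNA together with that of *Rpl11*. *Rpl5* stood at 172, 168 and 176 CPM in Dlx5CE-E12.5 replicates and at 6.73 and 5.93 CPM in Fgfr3CE-E12.5 replicates, a log2 fold change of -4.76 ± 0.16 (SE, edgeR adjusted p = 3.4e-05). *Rpl11* stood at 115, 110 and 117 CPM against 19.3 and 17.5 CPM (log2 fold change -2.63 ± 0.14, edgeR adjusted p = 4.28e-05). Both partners were separated between origins, but their order depended on copies of the genes elsewhere in the genome (described below): with the counts of copies added, *Rpl5* stood at -1.11 and *Rpl11* at -2.02.

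*Rpl10*, whose product completes the large subunit late in its assembly near the catalytic centre, read 396, 328 and 358 CPM in Dlx5CE-E12.5 and 21.6 and 20.7 CPM in Fgfr3CE-E12.5 libraries (log2 fold change -4.09 ± 0.17, edgeR adjusted p = 3.6e-05). *Rpl13* had the highest level for its length of the large subunit genes in Dlx5CE-E12.5 cells, 763 CPM per kb of transcript, and fell to 58.4 CPM per kb. Its libraries read 624, 540 and 622 CPM against 43.1 and 48.0 CPM (log2 fold change -3.71 ± 0.17, edgeR adjusted p = 4.28e-05). The lowest level of the tested large subunit genes in Dlx5CE-E12.5 cells was that of *Rpl39*, a small protein of the exit tunnel, at 32.5 CPM per kb. It stood at 18.8 CPM per kb in Fgfr3CE-E12.5 cells, where others such as *Rpl5* (3.10 CPM per kb) were lower. Its libraries read 20.3, 18.5 and 21.0 CPM against 11.8 and 11.2 CPM, and its log2 fold change of -0.79 ± 0.19 passed the adjusted p of edgeR (0.0125) but not the fold threshold.

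The stalk of the large subunit, which recruits translation factors, is formed by the products of *Rplp0*, *Rplp1* and *Rplp2*, with that of *Rpl12* at its base. All 4 genes were lower by edgeR's adjusted p, and 2 of them also passed the fold threshold. *Rplp0* had 702, 549 and 613 CPM against 332 and 397 CPM (log2 fold change -0.77 ± 0.18, edgeR adjusted p = 0.0104). *Rplp2* had 67.5, 56.7 and 65.5 CPM against 39.8 and 44.1 CPM (log2 fold change -0.59 ± 0.15, edgeR adjusted p = 0.0151). *Rplp1* fell further, from 119, 95.7 and 113 CPM to 36.8 and 40.7 CPM (log2 fold change -1.49 ± 0.16, edgeR adjusted p = 0.000422). *Rpl12* fell from 66.7, 43.3 and 56.6 CPM to 6.14 and 7.37 CPM (log2 fold change -3.04 ± 0.24, edgeR adjusted p = 0.000154), but with the counts of copies added it stood at -1.05, against -1.77 for *Rplp1*, -1.22 for *Rplp0* and -0.66 for *Rplp2*. Of the 8 genes for proteins along the exit tunnel and its opening, 5 (62.5%) were called lower, with a median of -1.49, against 78.3% of all members tested.

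In the small subunit, *Rps23* had the lowest fold change of the gene alone, and its product sits in the decoding centre. It read 133, 130 and 139 CPM in Dlx5CE-E12.5 and 10.2 and 8.98 CPM in Fgfr3CE-E12.5 libraries (log2 fold change -3.81 ± 0.15, edgeR adjusted p = 3.6e-05). *Rps6*, whose product is the best known substrate of the S6 kinases, read 339, 291 and 329 CPM against 28.9 and 25.7 CPM (log2 fold change -3.55 ± 0.16, edgeR adjusted p = 4.28e-05). *Rps27* read 104, 97.4 and 124 CPM against 8.83 and 14.2 CPM (log2 fold change -3.23 ± 0.26, edgeR adjusted p = 0.000149). For each of these genes the lowest Dlx5CE-E12.5 library exceeded the highest Fgfr3CE-E12.5 library several-fold. With the counts of copies added, *Rps23* stood at -2.11 and *Rps6* at -1.41, above *Rps2* at -3.10. *Rps27* stayed at -3.23, because its copy *Rps27rt* is itself a member and was not added to it.

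*Rps9*, an early binder of the small subunit RNA, had the highest small subunit level for its length in Dlx5CE-E12.5 cells, 466 CPM per kb. In Fgfr3CE-E12.5 cells it stood at 168 CPM per kb, next to *Rps3a1* at 179 CPM per kb. Its libraries read 350, 330 and 370 CPM against 117 and 136 CPM (log2 fold change -1.47 ± 0.15, edgeR adjusted p = 0.000391). The lowest level of the tested small subunit genes was that of *Rps20*, 17.2 and 4.26 CPM per kb, where the annotated main transcript is 3706 bases long against a median of 681 bases over the genes tested. By location, 3 of 3 genes for proteins at the mRNA entry were called lower (median -1.78), as were 3 of 5 at the platform where the mRNA leaves (median -1.42) and 2 of 3 of the beak (median -2.43). Of all members tested, 78.3% were called lower. With the counts of copies added, the entry genes *Rps3*, *Rps2* and *Rps23* stood at -1.12, -3.10 and -2.11. The platform genes *Rps14*, *Rps26*, *Rps28*, *Rps3a1* and *Rpsa* then stood at -1.73, -2.55, -1.62, -1.10 and -0.31. The beak genes *Rps12*, *Rps27a* and *Rps10* stood at -1.48, -1.74 and -1.18. Whether locations differed was not tested.

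A few genes did not follow the others. *Rpsa*, which encodes the laminin receptor protein of the small subunit, read 114, 96.0 and 100.3 CPM in Dlx5CE-E12.5 and 127 and 141 CPM in Fgfr3CE-E12.5 libraries, the only tested member with every Fgfr3CE-E12.5 library above every Dlx5CE-E12.5 library; its log2 fold change of 0.38 ± 0.14 missed the threshold (edgeR adjusted p = 0.0596). *Rps3a1*, another platform protein, read 151, 213 and 237 CPM against 182 and 168 CPM, which overlapped (log2 fold change -0.19 ± 0.21, edgeR adjusted p = 0.471, and 0.017 when scaled by library size alone). *Rpl7l1*, a paralog of *Rpl7* that takes part in ribosome assembly, also overlapped, at 117, 106 and 97.2 CPM against 99.1 and 126 CPM (log2 fold change 0.07 ± 0.16, edgeR adjusted p = 0.725, and -0.046 without Fgfr3CE-E12.5 replicate 3). *Rpl26* was the member whose Fgfr3CE-E12.5 libraries differed most, at 22.9 and 52.1 CPM against 65.3, 59.4 and 63.6 CPM, and missed the threshold (edgeR adjusted p = 0.0978). *Rps19bp1*, the member that is not a ribosomal protein, read 14.7, 11.8 and 12.7 CPM against 13.9 and 16.1 CPM and did not pass either (log2 fold change 0.20 ± 0.21, edgeR adjusted p = 0.462).

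The paralogs, some of which can take the place of a ribosomal protein in some tissues, had 2 of 5 tested genes called lower and a median log2 fold change of -0.70. *Rpl7l1*, the paralog that takes part in ribosome assembly (above), is counted among these 5 and was not called. Of all members tested, 78.3% were called lower. *Rpl39l* fell from 18.6, 19.3 and 18.1 CPM to 6.60 and 6.71 CPM (log2 fold change -1.49 ± 0.20, edgeR adjusted p = 0.00123), more than its parent *Rpl39*. *Rpl22l1* fell from 61.8, 54.8 and 55.7 CPM to 22.53 and 17.99 CPM (log2 fold change -1.50 ± 0.17, edgeR adjusted p = 0.000569), whereas *Rpl22* read 25.3, 27.5 and 26.2 CPM against 18.8 and 18.3 CPM (log2 fold change -0.51 ± 0.16, edgeR adjusted p = 0.0369). *Rpl36al* was lower without reaching the fold threshold (-0.70 ± 0.15, edgeR adjusted p = 0.00823), and *Rps27l*, a p53 target, missed the adjusted p (-0.32 ± 0.13, edgeR adjusted p = 0.0886). *Rpl3l*, the form of striated muscle, had 0 to 26 counts in any library. Whether paralogs and parents differed from each other was not tested.

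Ribosomal protein genes whose mutation changes the skeleton or the coat of mice were called lower in 6 of 6 cases, with a median of -2.06, where 78.3% of all members tested were called lower. *Rpl38*, mutated in the Tail short mouse with its altered axial skeleton, read 20.7, 14.6 and 17.5 CPM against 6.14 and 8.60 CPM (log2 fold change -1.26 ± 0.27, edgeR adjusted p = 0.00785), and it no longer passed the fold threshold without Fgfr3CE-E12.5 replicate 2 (-0.96), after removal of the trend on transcript length (-0.60) or with its copies summed (-0.95). *Rpl24*, mutated in the Belly spot and tail mouse, read 124, 105 and 121 CPM against 26.3 and 28.2 CPM (log2 fold change -2.10 ± 0.15). *Rps7*, at 147, 125 and 145 CPM against 20.1 and 20.9 CPM, fell by 2.76 ± 0.15 on the log2 scale, and stood at -1.63 with its copies summed. Its lowest Dlx5CE-E12.5 library lay far above both Fgfr3CE-E12.5 libraries. *Rpl27a*, at 62.8, 56.5 and 72.3 CPM against 11.1 and 10.9 CPM, fell by 2.53 ± 0.18. *Rps20*, at 66.5, 57.1 and 67.7 CPM against 16.4 and 15.1 CPM, fell by 2.02 ± 0.16, but stood at -1.05 with its copy summed. *Rps19*, at 266, 227 and 261 CPM against 91.4 and 98.1 CPM, fell by 1.41 ± 0.14. In each of the 6 genes the origins did not overlap, as in most members, of which 79 of 83 had every Dlx5CE-E12.5 library above. Of the 18 members mutated in Diamond-Blackfan anaemia, an inherited failure of red cell production, 13 (72.2%) were called lower, with a median of -1.97, a share near that of all members.

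At the fold threshold, the called genes nearest to it were *Rps24* at -1.02 and *Rps15* at -1.01, and *Rpl4*, at -0.89, lay just short of it. *Rps24* read 111, 108 and 122 CPM against 54.03 and 58.05 CPM, and *Rpl4* read 606, 508 and 546 CPM against 277 and 322 CPM, so both sides of the threshold showed separated libraries. *Rps15* read 85.0, 80.6 and 87.3 CPM against 36.3 and 47.3 CPM, again without overlap. *Rps24* dropped below the threshold without Dlx5CE-E12.5 replicate 3 (-0.97) and without Fgfr3CE-E12.5 replicate 2 (-0.90), and *Rps15* likewise (-0.99 and -0.76).

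Other symbols are also borne by ribosomal proteins. *Fau*, which encodes a ubiquitin-like protein fused to a small subunit protein, read 124, 114 and 130 CPM against 20.5 and 24.5 CPM (log2 fold change -2.45 ± 0.16, edgeR adjusted p = 6.88e-05). Of the 50-base windows of its transcript, 83.5% also occur in other genes (described below), against 0.93% for *Rack1*. Copies of these genes were not summed. *Rack1*, a scaffold protein at the small subunit head, overlapped between origins at 190, 170 and 179 CPM against 142 and 185 CPM (log2 fold change -0.13 ± 0.16, edgeR adjusted p = 0.522), and its sign turned without Fgfr3CE-E12.5 replicate 2 (0.12) and under scaling by library size alone (0.078).

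The size of the difference went with how much of a gene's sequence also occurs elsewhere. For each gene, the share of the 50-base and 150-base windows of its main transcript that occur letter for letter in a transcript of another gene was measured in the GENCODE M21 reference. The median share was 60.0% for 50 bases and 27.9% for 150 bases in the 83 genes, against 0% for the other protein-coding genes tested. Across the 83 genes, Spearman's rho between log2 fold change and this share was -0.44 for 50 bases and -0.63 for 150 bases, against -0.12 for transcript length and 0.08 for GC content. These are descriptions across genes of the same 5 libraries, which are not independent replicates. In the 23 genes with under 10% of 150-base windows shared, the median log2 fold change was -1.01 and 12 were called lower, and in the 8 genes with at least 80% shared it was -3.04 and 7 were called lower. Other protein-coding genes with at least 80% of their 150-base windows shared had a median of -0.36.

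**Figure D3:**
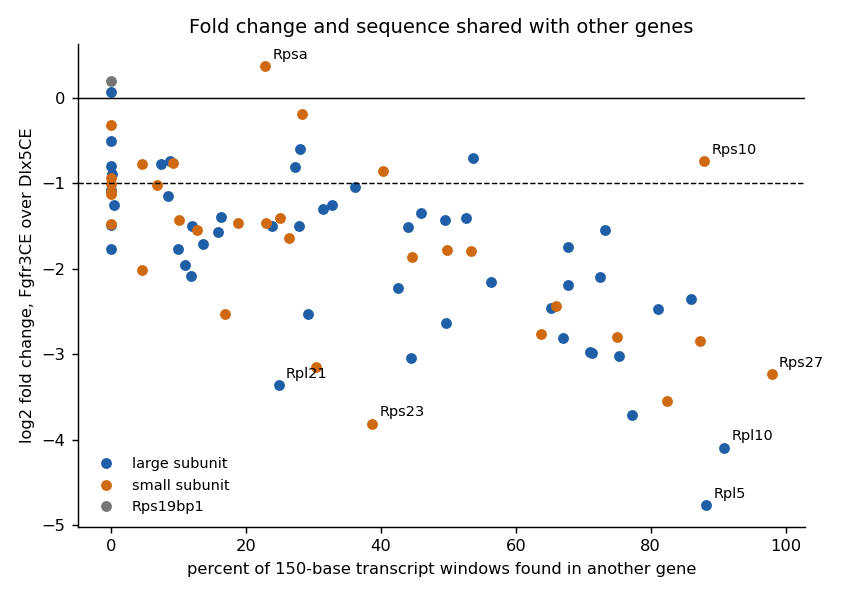
Log2 fold change (vertical axis, Fgfr3CE-E12.5 over Dlx5CE-E12.5) of the 83 tested genes against the percent of their 150-base windows found in another gene (horizontal axis), coloured by subunit; the dashed line marks the fold threshold. Genes with under 10% shared lie between -2.02 and 0.20, the lowest 2 values lie to the right (Rpl10 at 90.9%, Rpl5 at 88.2%), and Rps23 (38.7%, -3.81), Rpl21 (24.8%, -3.36), Rps10 (88.0%, -0.74) and Rpsa (22.8%, 0.38) depart from the trend.

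Of the few genes with little shared sequence, *Rps3* and *Rpl8* are given, which were chosen after their values were seen. *Rps3*, at the mRNA entry, shares 2.96% of its 50-base windows and read 318, 265 and 302 CPM against 121 and 150 CPM (log2 fold change -1.12 ± 0.16, edgeR adjusted p = 0.00171). *Rpl8*, near the catalytic centre, shares 7.86% and fell by 1.07 ± 0.14 on the log2 scale (edgeR adjusted p = 0.000992). Of the 6 genes under 10%, *Rps19bp1* included, 5 were called lower, with a median of -1.30. Among them, *Rps20* (7.57% shared) moved from -2.02 to -1.05 with the counts of its copy added. The part of shared sequence in the decrease was not tested.

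The copies themselves carried many counts. Outside the 85 genes, 460 features shared at least 20% of their own 50-base windows with a ribosomal protein gene that they do not overlap, 451 of them not protein-coding, and each was assigned to the gene it shared most with. They took 0.574%, 0.553% and 0.536% of all counts in Dlx5CE-E12.5 and 0.201% and 0.207% in Fgfr3CE-E12.5 libraries. Which copies were counted differed between the origins. The 266 copies with 20 to 50% of windows shared held 0.218 to 0.245% of counts in Dlx5CE-E12.5 libraries and 0.00381% and 0.00224% in Fgfr3CE-E12.5 libraries, where 258 of them stayed under 1 CPM. The 127 copies with 50 to 80% shared held 0.237 to 0.255% against 0.0393% and 0.0375%. The 67 copies with at least 80% shared went the other way as a whole, with 0.0742 to 0.0764% against 0.158% and 0.167% of counts in sum. These 67 were divided, as 35 had every Fgfr3CE-E12.5 library above every Dlx5CE-E12.5 library, 27 had the opposite order, and 22 stayed under 1 CPM in both Fgfr3CE-E12.5 libraries. As read length coincided with the origin by the study's methods, these shifts between a gene and its copies cannot be told apart from a difference in the cells.

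**Figure D4:**
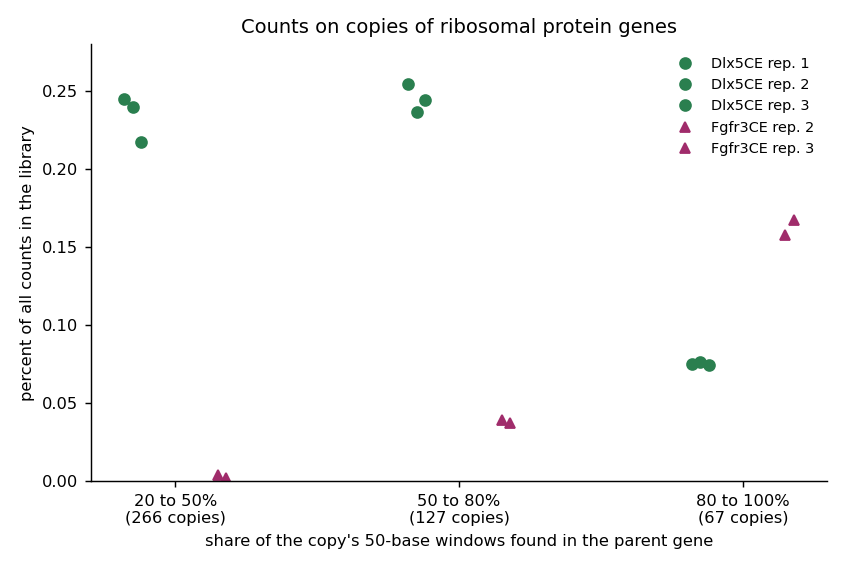
Percent of all counts in each library (vertical axis) on copies of ribosomal protein genes, grouped by the share of the copy's 50-base windows found in the parent gene (horizontal axis); circles are the 3 Dlx5CE-E12.5 and triangles the 2 Fgfr3CE-E12.5 libraries. Copies with under 80% shared lie far higher in Dlx5CE-E12.5 libraries, and the sum over the 67 copies with more lies higher in Fgfr3CE-E12.5 libraries.

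The genes with the lowest values, *Rpl5* (chr5:107900502-107909005, + strand, GRCm38) and *Rpl10* (chrX:74270812-74273135, + strand), show what these copies look like. The first 150 bases of their coding sequences, from GENCODE M21, are given with the same stretch of 2 copies each. The first is the copy with most counts summed over the 5 libraries. The second has most counts among copies with under 80% of windows shared that line up with this stretch without a gap. Letters are in lower case, with the bases that differ from the gene in capitals.
Rpl5: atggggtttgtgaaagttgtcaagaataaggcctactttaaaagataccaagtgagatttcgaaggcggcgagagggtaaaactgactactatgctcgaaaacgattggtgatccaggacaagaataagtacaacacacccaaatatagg
Gm15500: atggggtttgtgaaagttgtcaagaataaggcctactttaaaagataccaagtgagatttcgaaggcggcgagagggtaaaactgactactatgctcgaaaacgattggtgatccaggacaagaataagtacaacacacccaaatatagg
Rpl5-ps1: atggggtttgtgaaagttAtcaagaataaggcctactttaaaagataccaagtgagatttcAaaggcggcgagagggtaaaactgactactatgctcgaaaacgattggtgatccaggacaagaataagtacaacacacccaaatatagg
Rpl10: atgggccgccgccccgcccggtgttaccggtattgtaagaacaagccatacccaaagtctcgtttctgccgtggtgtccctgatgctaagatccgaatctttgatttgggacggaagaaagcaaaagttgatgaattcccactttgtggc
Rpl10-ps1: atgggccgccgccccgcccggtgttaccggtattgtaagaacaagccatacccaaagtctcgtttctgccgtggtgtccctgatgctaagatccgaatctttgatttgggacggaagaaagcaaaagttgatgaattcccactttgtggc
Gm2387: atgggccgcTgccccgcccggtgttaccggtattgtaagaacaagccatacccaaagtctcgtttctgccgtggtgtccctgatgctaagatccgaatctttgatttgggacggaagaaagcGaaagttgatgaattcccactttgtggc
*Gm15500* (chr7:114705217-114706235, - strand), a processed pseudogene of *Rpl5* identical to it over these 150 bases, read 40.4, 35.4 and 43.5 CPM in Dlx5CE-E12.5 and 122 and 137 CPM in Fgfr3CE-E12.5 libraries. *Rpl5-ps1* (chr1:14865072-14865965, + strand), with 2 differing bases here, read 13.2, 14.8 and 12.6 CPM against 0 and 0.126 CPM. *Rpl10-ps1* (chr2:105554201-105554845, - strand), also identical to its parent, had 0 counts in each Dlx5CE-E12.5 library and 6842 and 6820 counts in Fgfr3CE-E12.5 libraries, or 111 and 108 CPM. *Gm2387* (chr15:52089308-52089953, + strand), with 2 differing bases, read 45.8, 42.4 and 39.4 CPM against 0 and 0.110 CPM. Of these 4 copies, the ones identical over this stretch were high and the other ones at or near 0 in the libraries of Fgfr3CE-E12.5 cells. The copies were picked by their counts and shared windows, so this contrast partly follows from the choice. Of the 67 copies with at least 80% shared, 22 also stayed under 1 CPM in both Fgfr3CE-E12.5 libraries.

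One copy is itself a member. *Rps27rt* (chr9:114982366-114982739, - strand) has the same coding sequence as *Rps27* (chr3:90212522-90213651, - strand), while the paralog *Rps27l* (chr9:66946086-66949516, + strand) differs at 60 of 252 bases, in capitals below.
Rps27: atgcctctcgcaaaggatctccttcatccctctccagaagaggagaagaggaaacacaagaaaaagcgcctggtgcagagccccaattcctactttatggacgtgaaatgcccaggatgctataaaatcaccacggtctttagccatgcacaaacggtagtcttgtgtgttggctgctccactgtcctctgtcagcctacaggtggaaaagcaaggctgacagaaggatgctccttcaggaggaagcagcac
Rps27rt: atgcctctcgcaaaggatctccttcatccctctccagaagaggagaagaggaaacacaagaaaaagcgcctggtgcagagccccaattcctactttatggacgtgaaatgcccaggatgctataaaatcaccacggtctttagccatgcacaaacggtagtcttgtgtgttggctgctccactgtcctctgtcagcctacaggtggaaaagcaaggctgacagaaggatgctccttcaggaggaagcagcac
Rps27l: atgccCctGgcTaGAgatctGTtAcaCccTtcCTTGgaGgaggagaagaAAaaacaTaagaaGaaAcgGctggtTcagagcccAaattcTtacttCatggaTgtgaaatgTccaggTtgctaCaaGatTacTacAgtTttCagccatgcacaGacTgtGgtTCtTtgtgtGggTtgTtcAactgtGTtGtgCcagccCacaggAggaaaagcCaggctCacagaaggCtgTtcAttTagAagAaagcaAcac
*Rps27rt* read 2.71, 2.97 and 2.90 CPM in Dlx5CE-E12.5 and 7.31 and 4.97 CPM in Fgfr3CE-E12.5 libraries, too low for the test, whereas *Rps27* fell (above) and *Rps27l* read 59.5, 54.9 and 54.1 CPM against 45.9 and 44.2 CPM. Reads from *Rps27* and *Rps27rt* cannot be told apart over the coding sequence, so the values of both are uncertain.

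When the counts of each gene were summed with those of its copies, the group stayed lower in Fgfr3CE-E12.5 cells and its members became more alike. Genes and copies together took 1.80%, 1.65% and 1.72% of counts in Dlx5CE-E12.5 (1.72% ± 0.0716, SD, n = 3) and 0.649% and 0.691% in Fgfr3CE-E12.5 libraries (0.670% ± 0.0297, SD, n = 2). Of the 83 genes, 72 were then called lower and none higher, with a median log2 fold change of -1.49, and the interquartile range narrowed from 1.38 to 0.74. Of these calls 63 were shared with the calls on the gene alone, 9 were gained and 2 lost. *Rpl5* moved from -4.76 to -1.11 ± 0.13 (edgeR adjusted p = 0.000738), *Rpl10* from -4.09 to -1.87, *Rpl13* from -3.71 to -1.45, *Rps6* from -3.55 to -1.41, *Rpl12* from -3.04 to -1.05 and *Rps23* from -3.81 to -2.11. In the other direction, *Rps3a1* moved from -0.19 to -1.10 ± 0.14 and passed (edgeR adjusted p = 0.000925), *Rplp0* from -0.77 to -1.22 and *Rps2* from -1.78 to -3.10. *Rpsa* turned from 0.38 to -0.31 without passing (edgeR adjusted p = 0.11). The lowest value was then *Rpl21* at -4.16, a gene with 43 copies that read 123, 104 and 113 CPM against 10.6 and 11.5 CPM by itself. The 8 tested genes with no such copy outside the 85 genes had a median of -1.30, and 5 of them were called lower. Without *Rps27*, whose copy *Rps27rt* is a member, the other 7 had a median of -1.12 and 4 were called lower. Summing thus changed the order of single genes but not the direction of the group. It cannot separate a difference in the cells from one in how reads were assigned. The 266 copies with 20 to 50% of windows shared added 0.218 to 0.245% of counts in Dlx5CE-E12.5 libraries. In Fgfr3CE-E12.5 libraries they added only 0.00381% and 0.00224%.

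**Figure D5:**
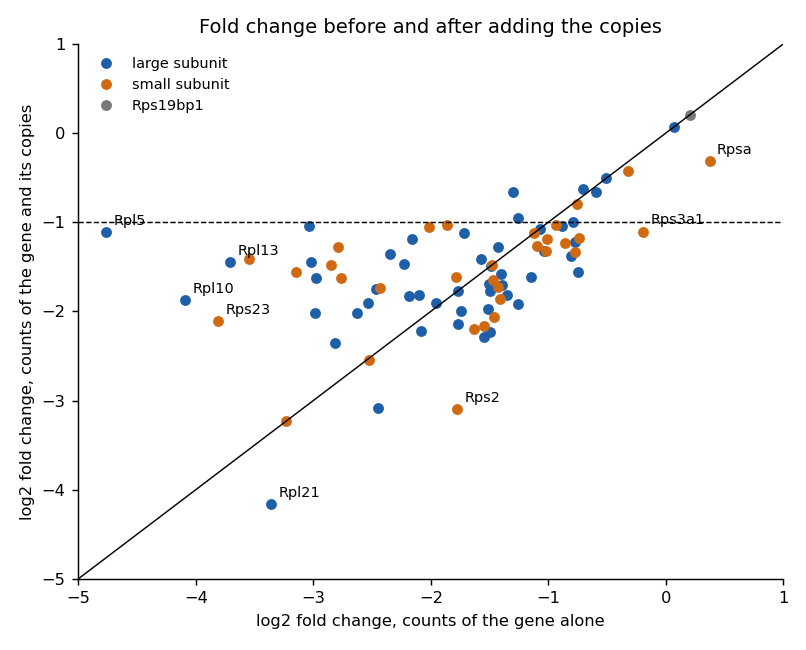
Log2 fold change of the 83 genes (Fgfr3CE-E12.5 over Dlx5CE-E12.5) from the counts of the gene alone (horizontal axis) and from the gene and its copies summed (vertical axis), coloured by subunit; the diagonal is equality and the dashed line the fold threshold. Genes at the far left such as Rpl5 and Rpl10 rise to -1.11 and -1.87, Rps2 and Rpl21 fall, and 81 of 83 lie below 0.

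Overlap on the genome is a further source of uncertainty, as the strand setting of the counting is not given in the sources used here. Another protein-coding gene overlaps 20 of the 85 genes, 16 of them from the other strand. For *Rpl5* this is *Fam69a*, which read 230, 259 and 259 CPM in Dlx5CE-E12.5 and 182 and 127 CPM in Fgfr3CE-E12.5 libraries.

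The start regions were searched for a TOP-like run in the RefSeq promoter table (GRCm38.p6), where 65 of the 85 genes had an entry. The run was taken as a C followed by at least 4 bases that are each C or T, on the strand of the gene. It began exactly at the annotated start in 13 of 65 genes (20%), against 2.31% of 13039 protein-coding genes with an entry, and within 5 bases before to 15 bases after the start in 37 of 65 (56.9%), against 30.9%. Tested members with such a run near the start had a median log2 fold change of -1.78 (35 genes), and those without it one of -1.48 (28 genes). The regions of the 2 lowest and the 2 highest small subunit genes are given from 30 bases before to 20 bases from the annotated start, with the run in capitals.
Rps23: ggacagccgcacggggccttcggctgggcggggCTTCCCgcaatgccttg
Rps6: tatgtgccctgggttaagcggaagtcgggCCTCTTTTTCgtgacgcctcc
Rps3a1: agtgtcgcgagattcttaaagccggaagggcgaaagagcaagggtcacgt
Rpsa: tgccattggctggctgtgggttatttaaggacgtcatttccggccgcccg
They lie at chr13:90923092-90923141 (+ strand), chr4:86857348-86857397 (- strand), chr3:86142649-86142698 (- strand) and chr9:120127736-120127785 (+ strand). The run is present in *Rps23* and *Rps6* and these letters are not in the searched window of *Rps3a1* and *Rpsa*. These regions lie wholly inside the genes as placed by GENCODE M21. There *Rps23*, *Rps6*, *Rps3a1* and *Rpsa* begin at 90922958, 86857412, 86142702 and 120127689. The searched windows can therefore miss the start of the mRNA, and presence or absence of the run at that start is uncertain. In the large subunit, neither the 2 lowest genes (*Rpl5* and *Rpl10*) nor the 2 highest (*Rpl22* and *Rpl7l1*) had such a run there. Whether the run goes with the fold change was not tested.

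Related groups of genes were set beside the members. For comparison, 13.1% of all genes tested were called lower and 16.4% higher. Of the 77 tested genes of mitochondrial ribosomal proteins, 1 was called lower and none higher, with a median log2 fold change of -0.10. The one called was *Mrpl23*, at -3.77 ± 0.27 (edgeR adjusted p = 9.84e-05). Mitochondrial ribosomal protein genes had a median CPM of 27.3 to 28.7 in Dlx5CE-E12.5 and of 25.05 and 27.72 in Fgfr3CE-E12.5 libraries, longer transcripts than the members (median 1223 bases) and a median of 2.67% of 50-base windows shared with other genes. The other genes with TOP mRNAs, mostly translation factors, lay between, with 5 of 18 called lower and none higher and a median of -0.83. Among them the poly(A)-binding protein gene *Pabpc1* fell by 1.90 ± 0.20 and the initiation factor gene *Eif3h* by 1.32 ± 0.15 on the log2 scale. The elongation factor genes *Eef1g* and *Eef1a1* fell by 1.65 ± 0.14 and 1.24 ± 0.16. In *Pabpc1*, *Eif3h*, *Eef1g* and *Eef1a1*, 20.7%, 26.2%, 64.3% and 60.6% of 50-base windows were shared with other genes. Their copies were not summed.

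Genes whose products make ribosomes were given the same test. Of 50 tested ribosome biogenesis genes, 1 was called lower (*Mdn1*, -1.20 ± 0.24) and 3 higher, with a median of 0.14. Both counts lie below the shares over all genes tested, 13.1% called lower and 16.4% called higher. The called higher were *Gar1*, a protein of the particles that modify ribosomal RNA (1.68 ± 0.24), the helicase gene *Ddx51* (1.62 ± 0.23) and *Utp18* (1.36 ± 0.38). Of 10 tested RNA polymerase I genes, none was called lower and *Taf1c* (1.39 ± 0.41) and *Polr1e* (1.03 ± 0.23) were called higher. Their median was -0.10, and 5 lay below 0 and 5 above it. Of 11 tested regulators of TOP mRNAs, 1 was called lower and 1 higher, with a median of -0.46. By edgeR's adjusted p alone, 3 were lower and 2 higher. *Larp1*, whose product binds the TOP sequence, was higher at 30.01, 25.76 and 31.74 CPM against 84.6 and 88.3 CPM (log2 fold change 1.57 ± 0.15, edgeR adjusted p = 0.000278). *Tsc1*, an inhibitor of mTOR signalling, was lower at 31.3, 24.0 and 20.2 CPM against 13 and 11.9 CPM (log2 fold change -1.02 ± 0.24, edgeR adjusted p = 0.0112). For both genes the libraries of the origins did not overlap. This was common among the 10088 genes tested, as 3444 had every Dlx5CE-E12.5 library above and 3510 every Fgfr3CE-E12.5 library above.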

How the data were processed

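Bulk RNA-seq libraries of Dlx5CE-E12.5 cells (replicates 1 to 3) and Fgfr3CE-E12.5 cells (replicates 2 and 3) were grouped by their labels. The authors aligned reads to mm10 with TopHat2 2.0.13 and Bowtie2 2.2.1, as named in the submitters' processing notes, and deposited raw counts for 30046 features, which were the values used here. Their normalized and rlog tables were not used here. Members and gene lists were chosen with earlier results of these data known, and the genes named with values were the 3 lowest and 3 highest fold changes and the extreme levels of each subunit, those nearest the fold threshold, the stalk, 5S particle, paralog and mouse mutant genes, and the largest changes of other lists. *Rpl26*, *Rpl8*, *Rps2*, *Rps3*, *Rps10*, *Rpl21*, the copies and *Fam69a* were chosen after their values were seen. Symbols, types and sequences came from GENCODE M21 (GRCm38), in which 29965 identifiers were found and 76 were not. The 10088 protein-coding genes and reporters that reached 10 CPM in 2 or more libraries entered the two-sided quasi-likelihood test of edgeR 4.0.16 (R 4.3.3, TMM scaling, no covariates, Benjamini-Hochberg adjustment). A call required both an adjusted p below 0.05 and a change of more than 1 on the log2 scale. The fit was tested on simulated data.

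Alternatives were other scalings, edgeR's exact test, DESeq2 1.42.0, other filters and thresholds, leaving out single libraries, a block for the replicate number, and removal of trends on GC content and length. Summing genes with their copies was chosen after seeing the data. No 2 libraries agreed within sampling noise. The study's methods describe the libraries as biological replicates made from pooled littermates, so p-values measure the spread between pools. Reads carried no molecular identifiers, and 3 counts, taken as the smallest detectable amount, equal 0.0516 to 0.136 CPM and cover counting error only. Some genes are not reported here. Figures were drawn with matplotlib.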

Additional observations from a re-analysis of the deposited data

Results flagged for a closer look

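Rows with symbols of ribosomal protein pseudogenes are no members. Of these rows, 3 passed the filter and were among all genes tested, and a part was added to the members when copies were summed. The rows held 284318 counts over the 5 libraries in 231 features, a signal in data outside the main measurement. They stood at 16.0 to 16.9 for every 100 counts on the members in Dlx5CE-E12.5 libraries and at 24.1 and 23.6 in Fgfr3CE-E12.5 libraries. Groups of 2 and 3 libraries are too small for a test of single outlying libraries.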

How the results depend on the processing

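The members called lower in Fgfr3CE-E12.5 cells numbered 65 and ranged from 56 (a test against a 2-fold change) to 77 (no fold threshold) over the settings run, and from 59 to 65 when each library was left out. None was called higher, except 1 (*Rps27rt*) with a CPM filter of 1 or with no filter. The median log2 fold change of -1.51 became -1.30 under scaling by library size alone, where the median of all genes tested moved from 0.01 to 0.22 and their calls from 1318 lower and 1653 higher to 1009 and 1985. It became -1.64 after removal of the GC trend, -1.23 after removal of the length trend (58 called lower) and -1.30 in the 6 members with under 10% of windows shared, and ranged from -1.58 to -1.45 with each library left out. As a share of protein-coding counts, the members took 1.24% in Dlx5CE-E12.5 and 0.481% in Fgfr3CE-E12.5 libraries. Signs turned for 5 genes that were not called: *Rack1* (0.078) and *Rps3a1* (0.017) under library size alone, *Rps27l* (0.15) after removal of the length trend, *Rpsa* (-0.31) with copies summed, and, with libraries left out, *Rack1* (-0.27 to 0.12) and *Rpl7l1* (-0.046 to 0.31). The cause was not tested. Of 646 values of 34 named genes under the alternatives, 612 kept direction and call, 17 lost the call, 11 gained it and 6 turned.

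Replicate numbers 2 and 3 occur in both origins, and deviations of same-numbered libraries had correlations of 0.13 and -0.05. Dlx5CE-E12.5 replicate 1 and Fgfr3CE-E12.5 replicate 3, which differ in number, gave 0.13. With 2 Fgfr3CE-E12.5 libraries the deviations mirror each other, so these values cannot show whether libraries are paired. With the replicate number as a block, 65 members were called lower and the median was -1.49. There were 2 Fgfr3CE-E12.5 libraries, read length was tied to the origin by the study's methods, and 3 counts equalled at most 0.136 CPM, far below the filter of 10 CPM.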
